A study of Mus musculus with 22 samples.

Results

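The miR-125, miR-99 and miR-100 family was followed through 22 mouse samples by the 7 probes that the panel lists for it, namely mmu-miR-125a-5p, mmu-miR-125a-3p, mmu-miR-125b-5p, mmu-miR-125b-3p, mmu-miR-99a, mmu-miR-99b and mmu-miR-100. The members were taken by these names from the 566 mouse miRNA probes of a panel of 626. The study asked which miRNAs change when fallopian tube tumors are induced in mice and whether such changes can be read in blood. The samples were 5 uninduced control fallopian tubes (CT), 5 doxycycline-induced fallopian tubes (FT) and 5 tumors (M), with plasma from 3 control mice (CS) and 4 induced mice (TS). M1 to M4 were peritoneal metastases and M6 was an ovarian tumor. miRNAs were counted with the NanoString nCounter assay, which ligates a tag to each miRNA and counts fluorescent barcodes without amplification.

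All mice carried a doxycycline-inducible Pax8-Cre system that acts on conditional alleles, among them Brca1 or Brca2, and their ages were not given in the sources used here. Among the controls CT1 was Brca1 fl/fl, CT2 Brca1 fl/+ and CT3 Brca1 fl/fl, whereas CT4 was Brca2 fl/fl and CT5 Brca2 fl/+. FT2 was Brca1 -/- and FT4 Brca2 -/-, while FT1, FT3 and FT5 were Brca2 -/+. M1 and M3 were Brca2 -/-, M4 was Brca2 -/+, and M2 and M6 were Brca1 -/+. The mice of FT2 to FT5 gave TS1 to TS4, in that order, and those of CT2 to CT4 gave CS2 to CS4. In 2 mice both an FT and an M sample were taken, and these mice are not named in the sources used here. Each sample is a piece of whole tissue or plasma, so fewer cells of a type and less RNA per cell cannot be told apart.

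A miRNA is cut from a hairpin precursor and guides a silencing complex to messenger RNAs through its seed, a short stretch near the 5′ end. One arm of the hairpin (5p or 3p) is usually kept and the other degraded. miR-125, let-7 and miR-99 or miR-100 genes lie together in clusters that have been retained in many animals. The founding miR-125 homolog, lin-4 of a nematode worm, times larval development. In mammals miR-125b is known for roles in blood cell differentiation, and miR-99 and miR-100 for targeting the mTOR kinase.

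The mature sequences show which members could act on the same targets. They are given 5′ to 3′ from RefSeq (GRCm38.p6), with the seed (bases 2 to 8) in capitals. The 5p arms of miR-125 share 1 seed.
miR-125b-5p: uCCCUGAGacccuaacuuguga
miR-125a-5p: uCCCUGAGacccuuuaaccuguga
The miR-99 and miR-100 members share another, and the panel names them without an arm.
miR-99a-5p: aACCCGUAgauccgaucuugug
miR-100-5p: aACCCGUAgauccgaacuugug
miR-99b-5p: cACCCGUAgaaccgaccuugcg
The 3p arms carry seeds of their own, and for miR-125b each gene has a different one. The panel name miR-125b-3p does not say which of these 2 it detects.
miR-125a-3p: aCAGGUGAgguucuugggagcc
miR-125b-1-3p: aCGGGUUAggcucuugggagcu
miR-125b-2-3p: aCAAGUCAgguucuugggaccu

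Counted from the 5′ end, miR-99a and miR-100 differed at 1 of 22 bases, U16A from miR-99a to miR-100. miR-99a and miR-99b differed at 4 bases, A1C, U11A, U16C and U21C. The first 13 bases of miR-125b-5p and miR-125a-5p were the same. How far probes for such close sequences also detect each other was not tested, and the counts of miR-99a and miR-100 are to be read with that limit. The hairpins lie in 3 clusters on the plus strand, each with a let-7 gene. Mir100 (chr9:41531425-41531504), Mirlet7a-2 (chr9:41536716-41536811) and Mir125b-1 (chr9:41581926-41582002) span 50578 bases within the long noncoding RNA gene Mir100hg. Mir99a (chr16:77598936-77599000), Mirlet7c-1 (chr16:77599657-77599750) and Mir125b-2 (chr16:77646273-77646343) span 47408 bases. Mir99b (chr17:17830188-17830257), Mirlet7e (chr17:17830352-17830444) and Mir125a (chr17:17830812-17830879) are packed into 692 bases within the protein-coding gene Spaca6. miR-125b-5p has the same sequence from both of its genes, so its count is the sum of the clusters on chromosomes 9 and 16.

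Summed counts on the 566 miRNAs were 70164 to 598321 in the tissue samples and 18350 to 269005 in the plasma samples. The level taken as background, the mean plus 2 SD of 8 negative controls in each sample, lay between 18.25 and 67.72 counts in tissue and between 25.0 and 48.43 counts in plasma. For tissue, counts were divided by the geometric mean over the top 100 miRNAs, and for plasma over the top 30. The results are called normalized counts. Levels in tissue and in plasma are therefore on separate scales. miR-125a-5p, miR-125b-5p, miR-99a, miR-99b and miR-100 were above background in 15 of 15 tissue samples. miR-125b-3p was above it in 11 of 15 and miR-125a-3p in 8 of 15, so low values of the 3p arms are partly background. As a check of tissue, the summed normalized counts of the 5 miR-200 family markers of epithelium were between 9285.0 and 11037.5 in CT. In M1, M2, M3, M4 and M6 they were 545.7, 2235.0, 242.5, 42009.8 and 8891.2, so M4 lay above all controls and the other tumors below them. The summed markers of ciliated epithelium (miR-34 and miR-449) were between 311.9 and 3766.5 in CT and between 27.94 and 88.28 in M. Of the 5 on the panel 0 were above background in any M sample.

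The family was among the most abundant in the tube and took a smaller part of the miRNA pool in tumors. The 7 probes held 14.33% ± 0.9956 (SD, n = 5) of all miRNA counts in CT, with a range of 12.82% to 15.24%. In FT the share was 10.6% ± 5.278 (SD, n = 5), from 4.466% in FT2 to 18.99% in FT5, on both sides of the controls. In M it was 4.101% ± 1.62 (SD, n = 5), and the highest tumor, M6 with 6.172%, stayed below the lowest control. In plasma the share was between 0.625% and 0.6866% in CS and between 0.329% and 1.091% in TS.

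**Figure D1:**
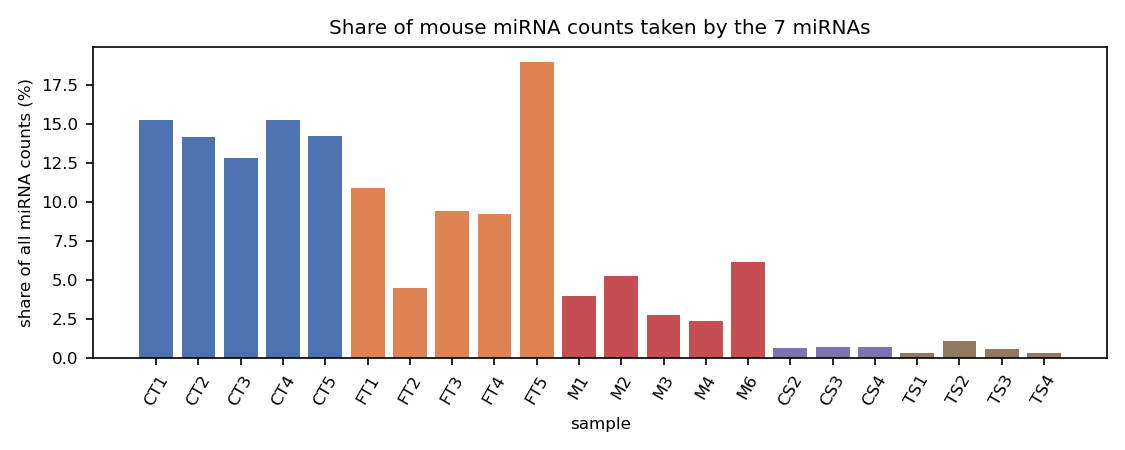
Share of all mouse miRNA counts (%, vertical axis, from 0) taken by the 7 family probes in each of the 22 samples (horizontal axis), coloured by group, with 1 bar a sample and no error bars. The 5 CT samples lie between 12.82% and 15.24%, the FT samples scatter from 4.466% to 18.99%, the M samples lie between 2.357% and 6.172%, and every plasma sample is at or below 1.091%.

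miR-125b-5p had the highest normalized count of the family in every tissue group, although probes differ in efficiency and an order between probes is an order of counts, not of molecules. In CT it stood at rank 1 to 3 of 566. Below it came miR-100 with 3719.2 ± 329.1, miR-125a-5p with 3357.2 ± 527.0 and miR-99a with 2707.6 ± 710.9 (mean normalized count ± SD, n = 5). Neighbours among these 3 overlapped. miR-99b followed with 217.3 ± 33.57, more than the 3p arms and clear of miR-99a. miR-125b-3p with 106.7 ± 12.92 and miR-125a-3p with 66.89 ± 13.93 were last and did not overlap each other. In M the same 4 members led but closer together, with means of 3998.5 for miR-125b-5p, 1927.3 for miR-100, 1906.2 for miR-99a and 1484.9 for miR-125a-5p, and their ranges overlapped.

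miR-125b-5p was lower in tumors than in control tubes. Its normalized counts in CT1 to CT5 were 14188.6, 15764.7, 12691.7, 16028.3 and 13375.2. In M1, M2, M3, M4 and M6 they were 2827.6, 6581.1, 1757.9, 1730.4 and 7095.7. Every tumor was below every control, and M2 and M6, the Brca1 tumors, were the highest of the 5. The log2 fold change of M against CT was -1.85 ± 0.501 (SE), with an adjusted p of 0.0184 by edgeR's quasi-likelihood test over all miRNAs. miR-125b-5p was the only 1 of the 7 members past the threshold of 0.05 in that comparison, in which 14.5% of all miRNAs were called and 4.24% were called lower. At an unadjusted p below 0.05 it was 3 of the 7, beside 28.3% of all miRNAs. Without CT4 the adjusted p was 0.0516, with trimmed mean (TMM) scaling 0.0570 and with miR-425 as the reference 0.0567, so the call lies close to the threshold while the direction was lower in each. The summed markers of smooth muscle and stroma were lower in tumors too. Of the 5 on that list 3 were called lower and 0 higher, 3 were above background in at least 1 M sample, and the summed normalized counts were between 4713.0 and 13280.4 in CT and between 626.5 and 3820.8 in M. Among the tumors M2 and M6 had the highest miR-125b-5p and the lowest sums (1036.5 and 626.5). Over the 15 tissue samples, log2 levels of miR-125b-5p had Pearson's r = 0.65 with miR-143 and 0.49 with miR-145. For deviations from group means, which leave out the difference between groups, r was 0.01 with miR-143 and -0.20 with miR-145. Of the 5 markers of ciliated epithelium on the panel, 4 were called lower and 0 higher. The part of either marker list in the fall of miR-125b-5p was not tested.

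Its seed partner miR-125a-5p was also lower in each tumor than in each control, without passing the test. Normalized counts in CT1 to CT5 were 2703.3, 3831.6, 2933.4, 3878.9 and 3438.7, and in M1, M2, M3, M4 and M6 they were 1974.3, 1607.3, 1223.4, 633.2 and 1986.5. The closest samples of the 2 groups were CT1 and M6. The log2 fold change was -1.18 ± 0.446 (SE), adjusted p = 0.0928 by edgeR. miR-125b-3p lay between 88.11 and 120.6 in CT and between 31.42 and 66.88 in M, with a log2 fold change of -1.07 ± 0.357 (SE) and an adjusted p of 0.0532 by edgeR, and 3 of the 5 tumors were above background. For miR-125a-3p, between 47.52 and 79.29 in CT and between 39.11 and 56.18 in M, the groups overlapped. Groups thus did not overlap for 3 of the 7 members, all lower in M, against 12.5% of all miRNAs in either direction and 5.12% lower. With a minimum mean count of 20, which leaves fewer miRNAs to test, miR-125a-5p and miR-125b-3p passed as well. The share of all miRNAs called under that filter is not reported here, so these passes cannot be set against it.

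The members with the miR-99 seed did not move together in tumors. miR-100 had normalized counts of 3566.6, 3583.2, 4047.1, 3323.2 and 4075.8 in CT1 to CT5, and 4339.1, 708.7, 1435.5, 2733.3 and 419.7 in M1, M2, M3, M4 and M6. M1 was above all controls and the other 4 below them. For miR-99a the values were 1678.4, 3119.9, 3556.1, 2742.9 and 2440.8 in CT1 to CT5, and 971.1, 3224.9, 520.8, 1421.0 and 3393.0 in the same tumors. Here M2 and M6 lay within the controls and the other 3 below them. miR-99b lay between 168.3 and 251.0 in CT, and its values in the tumors were 687.5, 194.6, 289.3, 410.8 and 202.0. M1, M3 and M4 were above all controls and the Brca1 tumors M2 and M6 within their range. The log2 fold changes were -0.95 ± 0.562 for miR-100, -0.51 ± 0.528 for miR-99a and 0.71 ± 0.461 for miR-99b (± SE), with edgeR adjusted p-values of 0.271, 0.509 and 0.316. The median log2 fold change of the 7 members was -0.95, beside 0.29 over all 566 miRNAs.

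**Figure D2:**
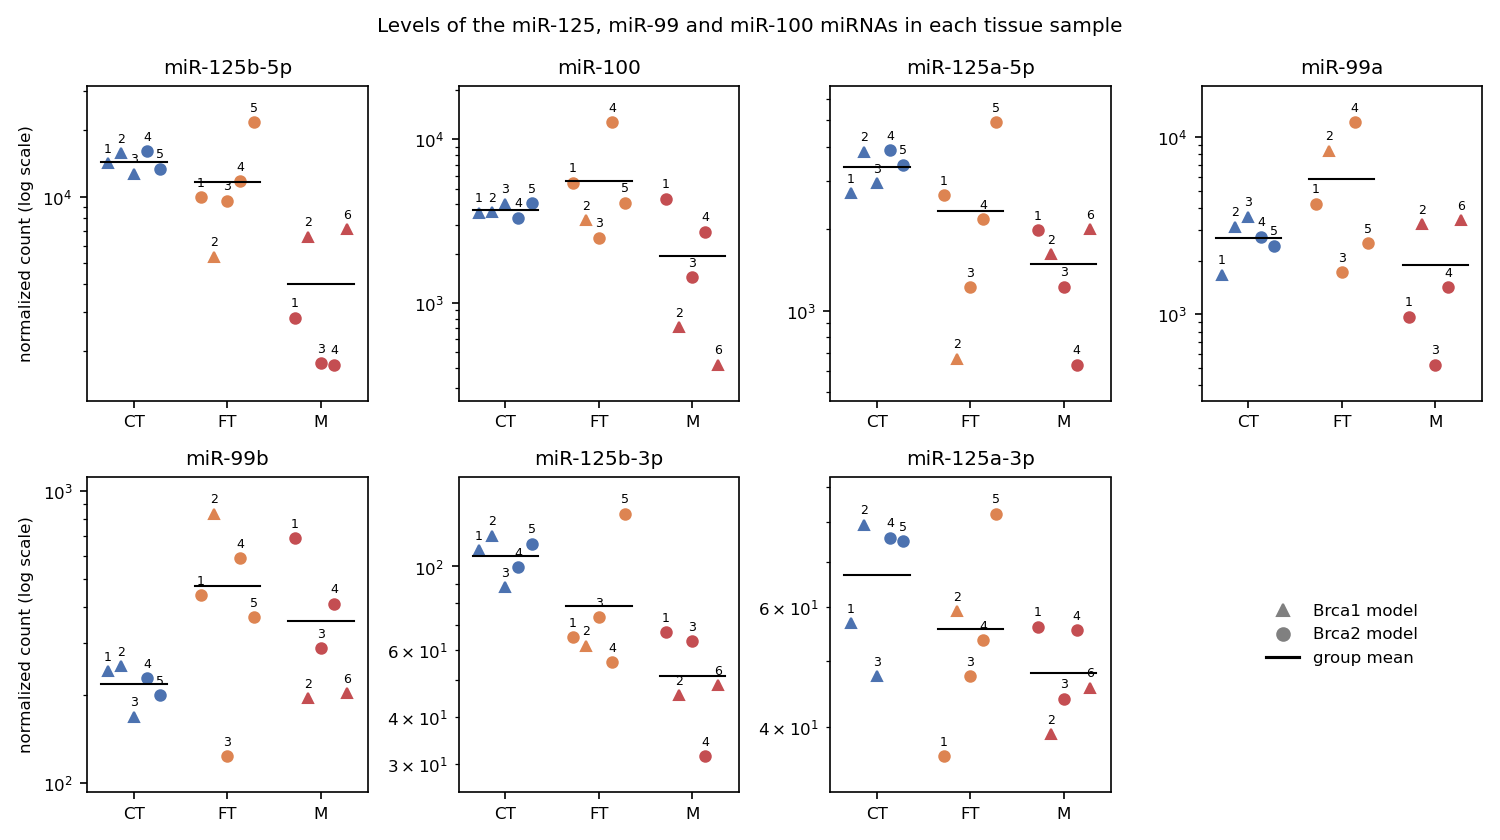
Normalized count (vertical axis, log scale) of each of the 7 members in the 15 tissue samples, with 1 panel a member, the groups CT, FT and M on the horizontal axis, sample numbers beside the points and a line at the group mean. Triangles are Brca1 models and circles Brca2 models. For miR-125b-5p the tumors lie between 1730.4 and 7095.7, all below the lowest control at 12691.7, for miR-100 they lie on both sides of the controls, and for miR-99b 3 of the 5 lie above them.

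In induced tubes the family scattered widely and 0 of the 7 members passed edgeR's test, where 0.177% of all miRNAs did. At an unadjusted p below 0.05 the count of members was also 0, beside 7.24% of all miRNAs. miR-125b-5p had normalized counts of 9955.6, 5343.8, 9575.8, 11715.7 and 21727.6 in FT1 to FT5. FT5 was above every control and the other 4 below every control. miR-125a-5p followed the same order at its ends, with 2659.2, 665.6, 1218.9, 2167.0 and 4916.5. The lowest in both was FT2, the only Brca1 sample among the induced tubes, and the highest FT5. The log2 fold changes of FT against CT were -0.30 ± 0.613 and -0.53 ± 0.600 (± SE), with edgeR adjusted p-values of 0.854 and 0.759.

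miR-99a and miR-100 had their highest tissue values in FT4, the Brca2 -/- tube. miR-99a had 4219.0, 8413.6, 1728.9, 12141.1 and 2517.9 normalized counts in FT1 to FT5. FT1, FT2 and FT4 were above every control. miR-100 had 5427.0, 3193.0, 2500.4, 12719.6 and 4100.6, so FT1, FT4 and FT5 were above every control and FT2, high in miR-99a, was below. miR-99b had 438.7, 833.8, 123.2, 586.5 and 368.4, with FT3 below every control and the other 4 above. The log2 fold changes were 1.10 ± 0.631 for miR-99a, 0.59 ± 0.601 for miR-100 and 1.11 ± 0.541 for miR-99b (± SE). The edgeR adjusted p-values were 0.759, 0.759 and 0.681. The 3p arms were between 55.67 and 137.9 for miR-125b-3p and between 36.3 and 82.3 for miR-125a-3p in FT. The epithelial marker sum also varied in FT, from 8246.8 in FT3 to 45391.5 in FT4, and its part in these differences was not tested.

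Tumors were also set against induced tubes, a comparison that shares its samples with both above and includes the 2 unnamed mice that gave both tissues. Of the 7 members 0 passed edgeR's test, where 1.59% of all miRNAs did, and 0 passed at an unadjusted p below 0.05, where 8.30% did. The log2 fold changes were -1.54 for miR-125b-5p, -1.54 for miR-100 and -1.61 for miR-99a, and the groups overlapped for all 7 members, whereas for 1.41% of all miRNAs they did not. With DESeq2 miR-100 was called lower in M. The share of all miRNAs that DESeq2 called there is not reported here, so this call cannot be set against it.

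**Figure D3:**
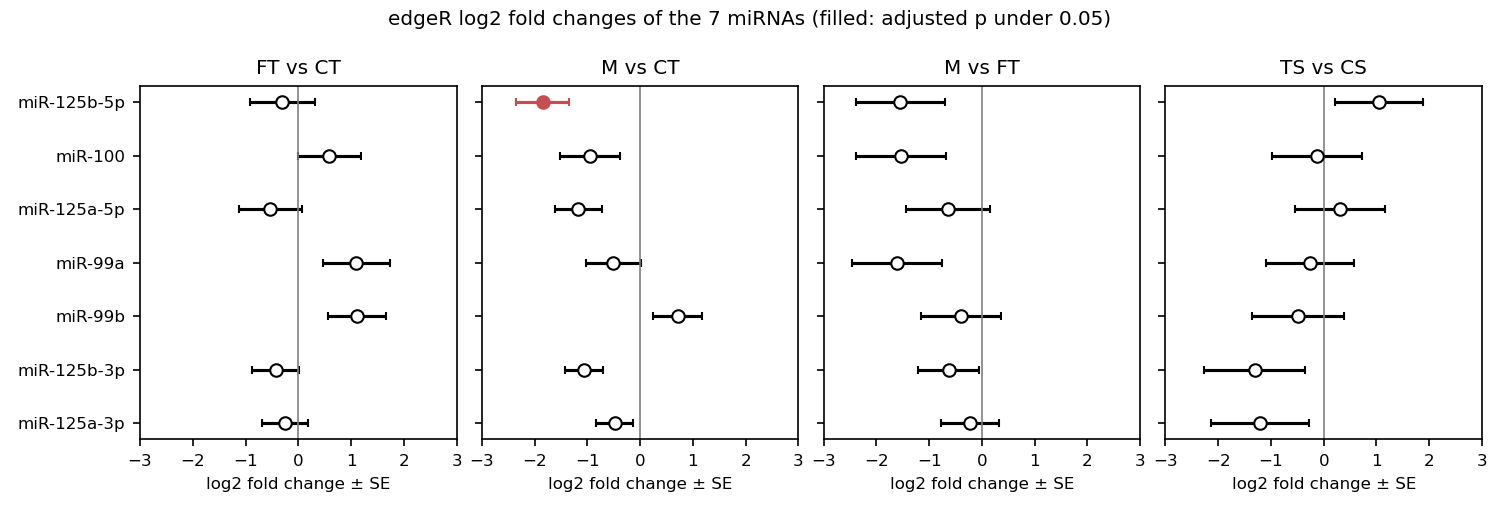
edgeR log2 fold change ± SE (horizontal axis) of the 7 members (vertical axis) for FT against CT, M against CT, M against FT and TS against CS, with filled points for an adjusted p under 0.05. The only filled point is miR-125b-5p in M against CT at -1.85.

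Ratios within a sample do not depend on the scaling between samples, and 8 were compared in each comparison. Of the 32, 25 had both miRNAs above background in most samples and were tested with two-sided exact permutation tests. After Benjamini-Hochberg adjustment over these 25, 0 passed 0.05, and the lowest adjusted p was 0.0661. The smallest p that 5 samples against 5 allow is 0.00794, and the ratios that reached it had an adjusted p of 0.0661. Even a ratio whose groups were fully separate thus did not pass, so the lack of a pass says little. A value of a ratio depends on 2 probes, so only its differences between samples are read.

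The 5p arms dominated. In CT the count of miR-125b-5p was 116.5 to 160.8 times that of miR-125b-3p, and that of miR-125a-5p was 45.88 to 61.73 times that of miR-125a-3p. The 45.88, in CT5, is a lower bound, since miR-125a-3p was not above background there. In M2 and M6 the miR-125b arm ratio was 144.2 and 146.5, within the controls. In M3 it was 27.74, below them. In M1 and M4 it was at least 42.28 and 55.08, lower bounds because the 3p arm was not above background, so their place against the controls is not settled. With the counts of all 5 tumors taken as they are, the mean log2 ratio was 7.08 in CT and 6.07 in M, a difference of -1.01 with a permutation p of 0.143 and an adjusted p of 0.336. In FT1, FT3 and FT5, where both arms were above background, it was 153.4, 130.3 and 157.6. In FT2 and FT4 it was at least 86.77 and 210.5, again lower bounds. With these counts taken as they are, FT differed from CT by 0.07 in mean log2 ratio (adjusted permutation p = 0.967). The miR-125a arm ratio was 35.14, 41.1, 27.75, 11.39 and 43.45 in M1, M2, M3, M4 and M6. M2 and M6, where both arms were above background, lay below the lowest control, and the values in M1, M3 and M4 are lower bounds, so no direction is given for the group. Of all 6 arm pairs on the panel that were above background in most of these samples, 50% had a permutation p under 0.05 for M against CT when such counts were taken as they are. In FT against CT 0 of 6 pairs and in M against FT 0 of 4 did.

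miR-125b-5p was lower relative to miR-125a-5p in 4 of 5 tumors than in any control. Its counts were 3.89 to 5.249 times those of miR-125a-5p in CT. In M1 to M4 and M6 the ratio was 1.432, 4.094, 1.437, 2.733 and 3.572. M2 lay inside the control range, M6 just below it, and the other 3 were lower still. The log2 difference was -0.84 (permutation p = 0.0159, adjusted 0.0661). In FT1 to FT5 the ratio was 3.744, 8.028, 7.856, 5.406 and 4.419, and M against FT gave a log2 difference of -1.22 (permutation p = 0.0159, adjusted 0.0661).

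In each tumor, miR-99b and miR-99a were higher relative to the miR-125 5p member of their cluster than in any control. miR-99b and miR-125a-5p come from hairpins less than 692 bases apart, and their count ratio was 0.05737 to 0.08892 in CT. In M1, M2, M3, M4 and M6 it was 0.3482, 0.1211, 0.2365, 0.6489 and 0.1017, above the controls in 5 of 5. The log2 difference was 1.84 (permutation p = 0.00794, adjusted 0.0661). In FT1 to FT5 it was 0.165, 1.253, 0.1011, 0.2706 and 0.07494, above the controls in all but FT5, with a log2 difference of 1.71 (permutation p = 0.0159, adjusted 0.0661). Without FT2 that difference was 1.07. miR-99a over miR-125b-5p, which share the cluster on chromosome 16, was between 0.1183 and 0.2802 in CT and between 0.2962 and 0.8212 in M, a log2 difference of 1.32 (permutation p = 0.00794, adjusted 0.0661). In FT this ratio ran from 0.1159 in FT5 to 1.574 in FT2 on both sides of the controls.

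The ratio of miR-100 to miR-99a, which differ by 1 base and come from different chromosomes, split the tumors. It was 1.138 to 2.125 in CT. In M1, M3 and M4, the Brca2 tumors, it was 4.468, 2.757 and 1.923. In M2 and M6, the Brca1 tumors, it was 0.2198 and 0.1237. In FT2, the Brca1 tube, it was 0.3795, and in the 4 Brca2 tubes it was 1.286, 1.446, 1.048 and 1.629. So the 3 induced Brca1 samples had the lowest ratios of all 15 tissue samples, below all controls, among which CT1, CT2 and CT3 are Brca1 models that were not induced. The pattern was noticed after the values were seen and was not tested. The group means of M and CT hid it, with a log2 difference of -0.63 (permutation p = 0.524, adjusted 0.770). The ratio of miR-99a to miR-99b also separated these tumors, with 16.57 in M2 and 16.8 in M6 but 1.412, 1.8 and 3.459 in M1, M3 and M4, beside 6.982 to 21.13 in CT. In FT it did not set the Brca1 tube apart, with 10.09 in FT2 and 6.834 to 20.7 in the Brca2 tubes. Total counts differed along with it. M2 and M6 had 253094 and 313180 miRNA counts, whereas M1, M3 and M4 had 103222, 70164 and 123139. The part of depth in the split was not tested, and both members of these ratios were above background in each of the 5 tumors. The marker sum of smooth muscle and stroma was also lower in M2 (1036.5) and M6 (626.5) than in M1, M3 and M4 (2830.3, 1430.0 and 3820.8). That of ciliated epithelium was 27.94 and 34.8 against 88.28, 88.17 and 77.34. Of its 5 markers on the panel 0 were above background in any tumor, so these sums are background counts and their order is not read. The mesenchymal marker sum was highest in M2 (13653.8) and M6 (6145.1), followed by M3 (5017.4). The part of these markers in the split was not tested.

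**Figure D4:**
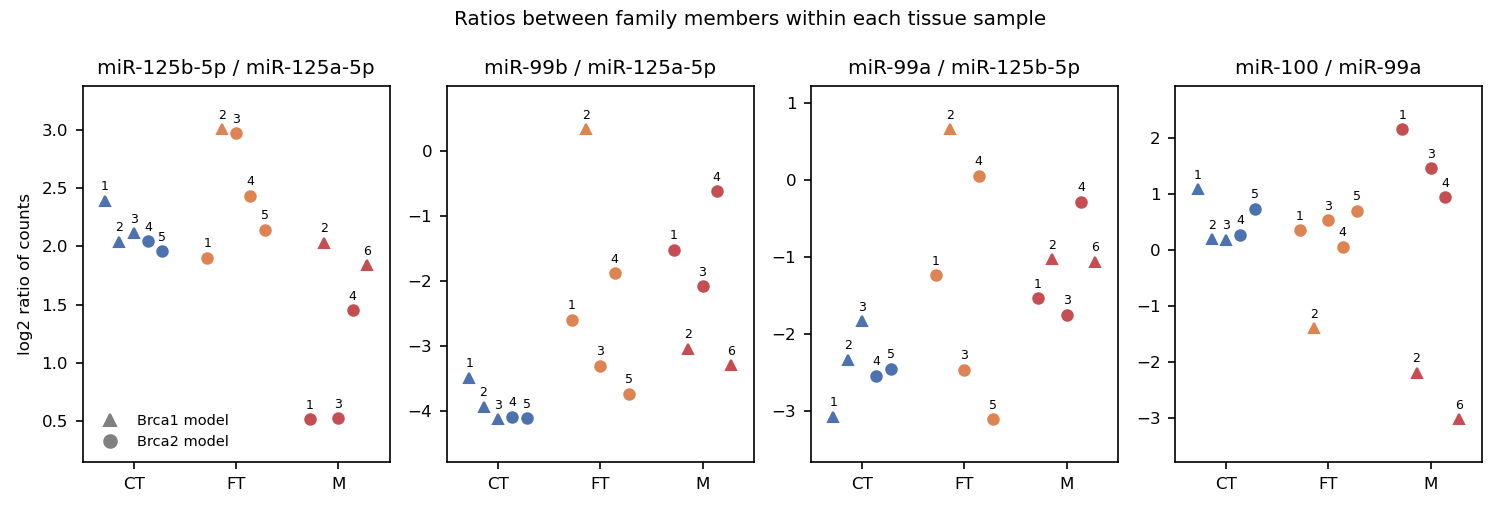
log2 ratio of counts within each tissue sample (vertical axis) for 4 pairs of members, with groups on the horizontal axis, sample numbers beside the points, triangles for Brca1 models and circles for Brca2 models. For miR-100 over miR-99a the induced Brca1 samples FT2, M2 and M6 are the 3 lowest of all 15, and for miR-99b over miR-125a-5p all tumors lie above all controls.

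Within groups, the miR-125 members with a shared seed covaried, and the r of miR-125 with the miR-99 or miR-100 member of its cluster was lower and depended on the scaling. Each log2 normalized count was taken as a deviation from its group mean over the 15 tissue samples, and Pearson's r was computed as a description, since all miRNAs of a sample share its library, its depth and its scaling. miR-125b-5p and miR-125a-5p, from different chromosomes, had r = 0.76. miR-99b and miR-125a-5p, from 1 cluster, had r = -0.11, miR-99a and miR-125b-5p 0.31, and miR-100 and miR-125b-5p -0.44. miR-99a and miR-100 had -0.11 despite their single base of difference. The 2 arms of miR-125b had 0.36 and those of miR-125a 0.17.

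Among the 141 miRNAs whose mean tissue count was 50 or more, the 3 most like miR-125b-5p were miR-23b (r = 0.83), miR-24 (0.78) and miR-23a (0.78). For miR-125a-5p they were miR-23b (0.85), miR-342-3p (0.84) and miR-23a (0.78). For miR-99b they were let-7e (0.94), its neighbour in the cluster, let-7b (0.90) and let-7c (0.90). For miR-99a they were miR-10a (0.93), miR-382 (0.73) and let-7d (0.72). For miR-100 they were let-7e (0.76), miR-301b (0.68) and miR-7a (0.68). With miR-425 as the reference, miR-99b and let-7e had r = 0.97, miR-99a and miR-10a 0.95, and miR-99a and miR-100 0.23 in place of -0.11. Within clusters it was then 0.50 for miR-99a and miR-125b-5p, -0.12 for miR-100 and miR-125b-5p, and 0.15 for miR-99b and miR-125a-5p. With the let-7 miRNA of their own cluster, miR-99a had r = 0.46 (let-7c) and miR-100 had 0.61 (let-7a). The let-7 probes themselves were close to each other, with r = 0.96 for let-7e and let-7c, so the match of miR-99b with its own cluster is not separate from a match with let-7 in general.

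**Figure D5:**
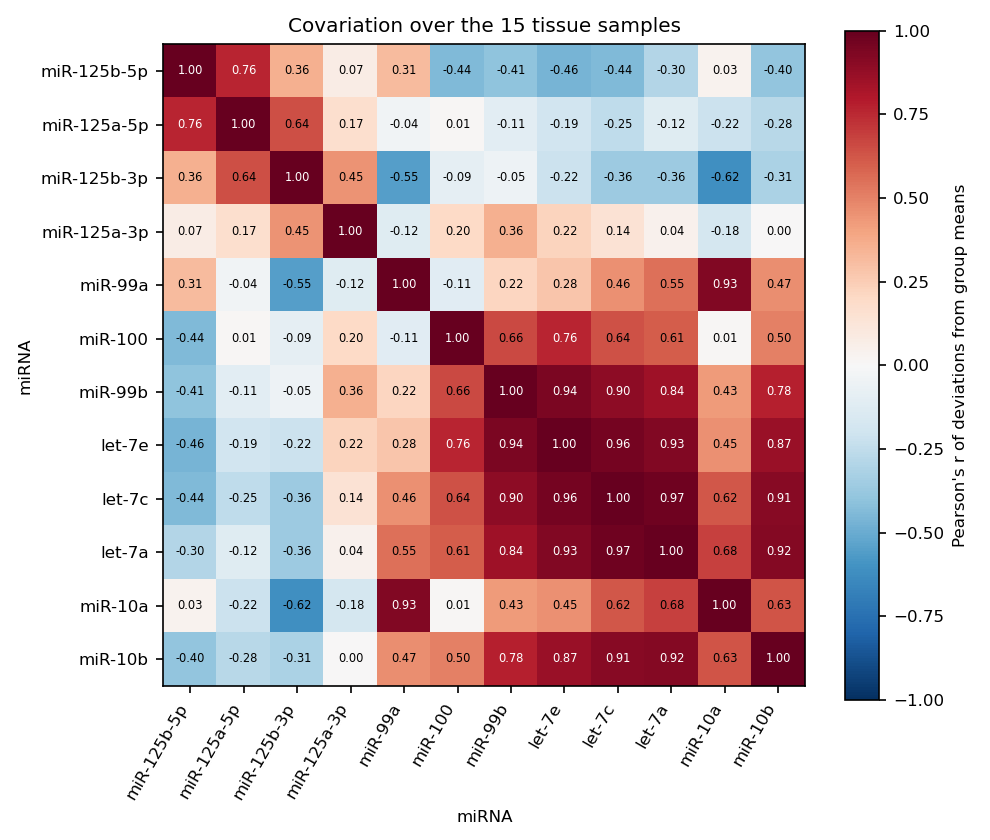
Pearson's r (colour, from -1 to 1, with the value in each cell) of log2 normalized counts as deviations from group means over the 15 tissue samples, for the 7 members, the let-7 miRNAs of their clusters and miR-10a and miR-10b (both axes). miR-125b-5p and miR-125a-5p are at 0.76, miR-99b is at 0.94 with let-7e but -0.11 with miR-125a-5p, and miR-99a is at 0.93 with miR-10a.

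miR-10a and miR-10b are relatives of the miR-99 members that lie in Hox gene clusters, and they carry a seed of their own.
miR-10a-5p: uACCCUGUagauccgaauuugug
miR-10b-5p: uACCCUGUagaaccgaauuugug
In the 5 relatives on the panel (let-7e, let-7c, let-7a, miR-10a and miR-10b) 0 passed edgeR's adjusted threshold in any of the 4 comparisons, in either direction. miR-10a averaged 943.5 ± 200.3 normalized counts in CT and 3729.3 ± 3442.3 in FT (SD, n = 5), a log2 fold change of 1.98 with an edgeR adjusted p of 0.307. Its values in FT1 to FT5 were 2607.9, 7736.2, 574.9, 7033.8 and 693.8, highest in FT2 and FT4, where miR-99a was highest too. let-7c averaged 6103.1 ± 1588.5 in CT and 14427.2 ± 8674.9 in M (SD, n = 5), a log2 fold change of 1.24 with an edgeR adjusted p of 0.104. let-7e, which shares a cluster with miR-99b and miR-125a, differed from CT by 1.35 on the log2 scale in FT and by 0.53 in M, with edgeR adjusted p-values of 0.641 and 0.450.

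In plasma miR-125b-5p was the only member above background in 7 of 7 samples. miR-125a-5p was above it in 5 of 7, miR-99a in 4, miR-99b and miR-100 in 3 each, miR-125a-3p in 1 and miR-125b-3p in 0. miR-125b-5p had normalized counts of 304.9, 369.4 and 206.5 in CS2 to CS4 and of 219.1, 1514.2, 623.4 and 60.71 in TS1 to TS4. TS2 and TS3 were above every control, TS1 within them and TS4 below. The log2 fold change was 1.05 ± 0.836 (SE), adjusted p = 0.570 by edgeR. miR-125a-5p had 111.1, 155.2 and 39.39 in CS and 115.7, 138.1, 204.7 and 34.18 in TS, which overlapped. miR-99a had 114.3, 125.6 and 232.2 in CS and 56.49, 203.4, 24.41 and 243.9 in TS, also overlapping. Its counts as deposited were 560 in CS4 and 478 in TS4, more than the 498 and 119 of miR-125b-5p there, but in CS2, CS3 and TS3 it was not above background.

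Of the 7 members 0 passed edgeR's test for TS against CS, where 0% of all miRNAs did, and 0 passed at an unadjusted p below 0.05, where 7.42% did. The groups overlapped for all 7, and for all but 5.30% of all miRNAs. Across the 566 miRNAs the median log2 fold change was -0.89 in this comparison and -0.05 with TMM scaling, and the log2 fold changes of miR-99a, miR-99b and miR-100 changed sign with it, so no direction is given for them. The ratio of miR-125b-5p to miR-125a-5p was 2.743, 2.381 and 5.242 in CS and 1.893, 10.96, 3.046 and 1.776 in TS. The groups overlapped, with a permutation p of 1.0. An exact test of 4 samples against 3 cannot give a p below 0.0571. Plasma did not mirror the tube of the same mouse in order. FT5 had the highest miR-125b-5p of the induced tubes and its plasma, TS4, the lowest of the 4, and TS2, the highest, came from the mouse of FT3.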

How the data were processed

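The authors deposited barcode counts of the NanoString nCounter mouse miRNA assay (V1.5), whole numbers for 626 probes in 22 samples, from 100 ng of tissue RNA or 10 ng of plasma RNA. Whether control probes were used to correct these counts before deposit is not given in the sources used here. The authors' own scaling in nSolver 3.0 is not in the counts and was repeated here, to the geometric mean of the top 100 miRNAs in tissue (5 members among them) and the top 30 in plasma (0 members), without background subtraction. M5 and CS1 were not analysed here, and alleles other than those of Brca1 and Brca2 are not reported here. The labels call the source of TS serum, and it is called plasma here as in their titles. All columns matched a sample (0 unmatched).

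Pairs of groups were compared in R 4.3.3 by the quasi-likelihood test of edgeR 4.0.16 (counts of 566 miRNAs, geometric means as library sizes, no filter on low counts, Benjamini-Hochberg adjustment, threshold 0.05). Log2 ratios of counts within a sample were compared with two-sided exact permutation tests (252 splits for 5 against 5, 35 for 4 against 3) in scipy 1.17.1. The edgeR and ratio tests were tested on simulated data. Alternatives were TMM, miR-425 scaling and scaling without the members, DESeq2 1.42.0, limma 3.58.1 on log2(normalized count + 1), the methods' t-test with Benjamini-Hochberg adjustment, a minimum mean count of 20, subtraction of the negative controls, counts + 10 in ratios, CT, FT and M fitted together, the sample number as a block, and each sample left out in turn. The members, the marker lists, the ratios and the relatives were chosen with earlier results of these data known. Besides the members and relatives, the 3 miRNAs with the highest r to a member were named. Marker lists not mentioned in the report were leukocyte, erythrocyte, endothelium and liver, each with 1 miRNA called higher and 0 lower in M against CT. Sequences and positions are from RefSeq (GRCm38.p6), in which all 7 panel names were matched to mature miRNAs. Samples are from separate mice except where the report says otherwise. Precision is limited by the 3 to 5 samples per group.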

Additional observations from a re-analysis of the deposited data

Results flagged for a closer look

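In 60 groups of 4 or 5 samples tested over the 7 members and the 8 ratios, 2 samples stood apart from the rest of their group by Dixon's test, which flags about 1 in 20 groups by chance. The normalized count of miR-100 was 12719.6 in FT4, against 2500.4 to 5427.0 in the other FT samples. That of miR-125b-3p was 137.9 in FT5, against 55.67 to 73.48 in the others. With each sample left out in turn, the log2 fold change of miR-100 in FT against CT ran from 0.03 to 0.77, and that of miR-125b-3p from -0.74 to -0.33, and neither was called with any sample left out.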

How the results depend on the processing

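The fall of miR-125b-5p in M kept its direction under every alternative, with log2 fold changes from -2.42 to -1.61, but not its call: the adjusted p was 0.0645 in edgeR with CT, FT and M fitted together and 0.101 by the methods' t-test, to which a Benjamini-Hochberg adjustment was added, besides the values in the report. The count of members called in M against CT was 1 in the report (miR-125b-5p), 1 with TMM and by the methods' t-test (miR-125b-3p instead of miR-125b-5p), 0 with miR-425 scaling, 2 with scaling without the members (both of these), 3 with DESeq2 (miR-125b-5p, miR-125b-3p and miR-100), 3 with a minimum mean count of 20, 0 with the 3 tissue groups fitted together, and 0 to 2 with each sample left out (0 without CT4, 2 without M1). In M against FT DESeq2 called 1, miR-100, without a share of all miRNAs reported here to set it against. The count of all miRNAs called in M against CT was 82, and ran from 32 by the methods' t-test to 184 with DESeq2. DESeq2, with 3 members called, thus also called the most of all miRNAs. With each sample left out the count of all miRNAs was 50 to 101. It is not reported here for TMM, miR-425 scaling, scaling without the members or a minimum mean count of 20. Nor is it for the 3 tissue groups fitted together. The members called in these settings cannot be set against it. In FT against CT the count of all miRNAs called was 1, and 0 to 12 elsewhere. In M against FT it was 9, and 0 to 39 elsewhere. In TS against CS it was 0, and 12 with DESeq2.

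Sample numbers did not pair samples. Deviations of samples with the same number had r from -0.34 to 0.30 for FT and CT, -0.17 to 0.12 for M and CT, -0.39 to 0.30 for M and FT, and 0.02 to 0.39 for TS and CS. The numbers that matched best with themselves were 0 of 5, 1 of 4, 2 of 4 and 1 of 3, in that order. With the number as a replicate block the members called were 0, 1, 0 and 1 in these comparisons (miR-125a-3p in TS), and all miRNAs called were 0, 70, 2 and 90.

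Signs changed only where no test had passed. With miR-425 scaling miR-125a-3p had 0.16 and miR-125b-5p 0.0245 in FT against CT. In TS against CS the log2 fold changes of miR-99a, miR-99b and miR-100 were 0.44, 0.44 and 0.66 with TMM, 0.61, 0.20 and 0.59 with miR-425, 0.57, 0.53 and 0.78 with DESeq2, and 0.0498, 0.62 and 0.87 with negative controls subtracted, where miR-125b-3p had 0.74. The log2 ratio difference of miR-125b-5p to miR-125b-3p in FT against CT was -0.0653 with counts + 10, and that of miR-125b-5p to miR-125a-5p in TS against CS -0.43 with negative controls subtracted.

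With each sample left out, log2 ratio differences in M against FT ran from -0.57 to 0.61 (miR-100/miR-125b-5p), -0.75 to 0.54 (miR-100/miR-99a), -0.38 to 0.56 (miR-99a/miR-125b-5p) and -0.25 to 0.77 (miR-99b/miR-125a-5p), and that of miR-100/miR-99a in M against CT from -1.20 to 0.10. In FT against CT they ran from -0.31 to 0.10 (miR-99a/miR-99b) and -0.0737 to 0.25 (miR-125b-5p/miR-125b-3p), and in TS against CS from -0.58 to 0.35 (miR-125b-5p/miR-125a-5p). In TS against CS log2 fold changes ran from -0.49 to 0.11 for miR-100, -0.74 to 0.15 for miR-99a, -0.75 to 0.0445 for miR-99b and -0.11 to 0.73 for miR-125a-5p. No ratio passed after adjustment under any alternative run. With a sample left out the smallest possible p is larger still, so a pass was hardly possible there and no conclusion is drawn from it. The cause of these changes was not tested. In plasma a difference in miR-125b-3p was not detectable, since 0 of 7 samples were above background.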
